A study of Mus musculus with 9 samples.

Results

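Genes of the contractile apparatus and of the transcription programmes tied to it were followed through TNF-α treatment and BAF knockdown in fibroblasts. The set was taken by name: 36 gene symbols were listed, and a symbol was measured through the transcript cluster (a group of probes summarised to 1 value) that the array annotation gives to that symbol alone, or through the brightest such cluster where there were several. Actg1, a cytoplasmic actin, was left out because its clusters are also annotated to Actb. This left 35 of 36 genes, out of 19698 genes with a cluster of their own. They comprise 3 genes known as readouts of the coactivator YAP (Ankrd1, Ccn1 and Ccn2, here the YAP-type genes), 5 actins, 5 myosin chains, 10 regulators of thin filaments, 9 adhesion, cross-linking and scaffold genes, and Srf with its coactivator genes Mrtfa and Mrtfb. Mylk, the gene of a kinase of the myosin light chain, is counted with the thin filament regulators here.

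The cells were 3T3 fibroblasts, an immortalised mouse line, grown to subconfluence and measured on 9 Affymetrix mouse Gene 1.0 ST arrays, 3 for each of 3 groups. Unstimulated control cells (control_ns) had neither TNF-α nor the knockdown. TNF-α-treated control cells (control_st) were given mouse TNF-α, an inflammatory cytokine, at 5 ng/ml for 1 h. BAF-knockdown cells (BAFkd_st) were given the same treatment and stably expressed, from a retroviral vector that also makes GFP, 1 hairpin RNA against a sequence common to the mRNAs of Brg1 and Brm, the ATPases of the BAF nucleosome remodelling complex. The knockdown cells were sorted for high GFP, and the sources used here do not say whether control cells carried a vector. Effects of vector, sorting or an unintended target therefore cannot be told apart from those of BAF loss. Knockdown cells without TNF-α were not analysed here, so their response to TNF-α was not measured. The methods give the 3 replicates of a group as independent cultures of separate days.

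SRF (serum response factor) binds the CArG box, a DNA element found in the promoters of many actin, myosin and adhesion genes. Its coactivators of the MRTF family are held by monomeric actin and enter the nucleus when actin polymerises, so that the state of the cytoskeleton feeds back on the genes that build it. A second class of partners, the ternary complex factors, couples SRF to growth factor and stress kinases and drives immediate early genes. YAP acts through TEAD proteins, which bind the MCAT element, and also responds to tension in the cytoskeleton. Ankrd1, Ccn1 and Ccn2 are widely used as its readouts, although Ccn1 and Ccn2 are known SRF targets as well.

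Promoter windows from 250 bases before to 50 bases after the annotated start were taken from RefSeq (mouse build GRCm38.p6) for 30 of the 35 genes. Ccn2, Actb, Actg2, Myh11 and Tagln had no entry. Windows are printed for Srf and Acta1, which hold the SRF element, and for Ankrd1 and Ccn1, which hold the core of the TEAD element. They are given 5′ to 3′ on the gene's strand, and capitals mark the CArG box (in Srf and Acta1) and CATTCC or its reverse complement GGAATG (in Acta1, Ankrd1 and Ccn1). The Srf window lies at chr17:46556113-46556412, that of Acta1 at chr8:123894726-123895025, that of Ankrd1 at chr19:36119795-36120094 and that of Ccn1 at chr3:145649936-145650235, all on the minus strand.
Srf: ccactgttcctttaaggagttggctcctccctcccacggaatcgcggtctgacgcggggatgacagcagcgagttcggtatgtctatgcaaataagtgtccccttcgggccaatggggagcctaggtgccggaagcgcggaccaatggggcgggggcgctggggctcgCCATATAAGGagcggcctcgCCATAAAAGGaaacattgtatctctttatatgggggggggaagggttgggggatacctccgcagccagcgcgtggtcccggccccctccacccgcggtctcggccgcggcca
Acta1: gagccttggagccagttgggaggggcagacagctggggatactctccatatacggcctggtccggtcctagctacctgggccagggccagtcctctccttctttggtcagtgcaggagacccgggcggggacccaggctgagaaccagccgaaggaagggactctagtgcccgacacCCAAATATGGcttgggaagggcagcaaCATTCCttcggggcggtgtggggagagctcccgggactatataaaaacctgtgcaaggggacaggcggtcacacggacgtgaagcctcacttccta
Ankrd1: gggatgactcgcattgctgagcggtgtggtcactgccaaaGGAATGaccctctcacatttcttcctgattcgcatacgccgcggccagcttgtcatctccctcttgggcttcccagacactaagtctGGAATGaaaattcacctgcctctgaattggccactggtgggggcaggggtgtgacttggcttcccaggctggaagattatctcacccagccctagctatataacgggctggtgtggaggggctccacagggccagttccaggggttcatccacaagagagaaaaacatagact
Ccn1: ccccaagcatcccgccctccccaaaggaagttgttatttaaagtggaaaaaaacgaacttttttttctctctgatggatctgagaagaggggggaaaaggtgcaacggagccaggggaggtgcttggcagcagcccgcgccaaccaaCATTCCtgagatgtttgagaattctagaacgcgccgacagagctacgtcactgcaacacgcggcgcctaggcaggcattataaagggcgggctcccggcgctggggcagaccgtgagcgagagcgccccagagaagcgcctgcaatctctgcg

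The strict CArG box, whose pattern is the same on both strands, stood in 8 of 37 windows of these genes (some have several starts), against 1.63% of all 32851 windows. The genes were Srf itself, the actins Acta1 and Actc1, the myosin light chains Myl6 and Myl9, the calponin Cnn2, vinculin (Vcl) and Filip1l. Srf held 2 copies, starting 82 and 62 bases before the start, and the copy of Acta1 started 73 bases before it. CATTCC, searched on both strands, was found in 13 of the 37 windows, against 14.7% of all windows. Ankrd1 held 2 copies (210 and 123 bases before the start) and Ccn1 held 1 (103 bases before it), and no strict CArG box stood in these 2 windows. These are matches of letters in a window and not binding sites. Both motifs occurred together in Acta1 and Vcl.

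Of the knockdown targets, Smarca4 (Brg1) stood at 11.66, 11.56 and 11.63 in unstimulated control cells, at 11.62, 11.53 and 11.56 in TNF-α-treated control cells and at 10.50, 10.64 and 10.25 in knockdown cells, 2.15-fold lower than in the treated controls (limma adjusted p = 0.00362). Smarca2 (Brm) stood at 9.18, 9.94 and 9.22, at 9.51, 9.81 and 9.39, and at 9.12, 9.38 and 9.12 in the same order. Its knockdown arrays lay below the treated controls without overlap, by -0.36 ± 0.20 (adjusted p = 0.734). By quantitative RT-PCR, a separate measurement, the paper reports a larger reduction of both mRNAs in knockdown cells. All levels are RMA log2 signals, and adjusted p-values were computed over all 19698 genes. Differences are log2 differences with the standard error (SE) of the limma fit without the replicate number as a block. This holds also where a p-value with the block stands beside them. Fibroblast markers fitted the labelled cell type, with 9 of 10 above the median gene (Thy1, at the 41.6th percentile, was not). This compares with 2 of 10 skeletal and cardiac muscle, 2 of 7 leukocyte and 1 of 8 epithelial and endothelial markers. Of 8 smooth muscle markers, 4 stood above the median gene (Cnn1, Actg2, Smtn and Lmod1). The mean level of the fibroblast list ran from 11.98 to 12.24 in unstimulated, from 11.89 to 12.18 in TNF-α-treated control and from 11.51 to 11.73 in knockdown arrays. All 10 of its genes had lower means in the knockdown than in the treated controls (45.5% of all genes). Postn was called (-0.75 ± 0.10, adjusted p = 0.0387, against 0.102% of all genes lower). With the replicate number as a block it was joined by Col3a1 (-0.93), Pdgfra (-0.57) and S100a4 (-1.18), against 2.33%. The part of this shift in the other differences was not tested, and fewer cells of a type and less RNA per cell cannot be told apart in such bulk samples. Over all genes, knockdown array 2 lay nearest to the control arrays on the first principal component (4.0, against 17.8 and 22.6 for knockdown arrays 1 and 3 and up to 1.94 for controls). Array 2 was the lowest of every group there, at -19.8 in unstimulated and -13.3 in TNF-α-treated control cells.

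Among the 35 genes, the YAP-type genes and Srf had the largest differences after TNF-α, and Actg2 and Ankrd1 had the largest in the knockdown. Ankrd1, a nuclear ankyrin-repeat cofactor known from stretched muscle, stood at 10.52, 9.89 and 10.85 in unstimulated control cells (replicates 1, 2 and 3), at 11.81, 10.27 and 11.54 in TNF-α-treated control cells and at 12.69, 11.27 and 12.53 in knockdown cells. Replicate 2 was the lowest of each group, so that its treated value lay below 2 of the 3 unstimulated values, while every replicate stood higher from group to group. Ccn2 (connective tissue growth factor), a secreted matricellular protein, stood at 11.55, 11.10 and 11.52, at 12.70, 11.48 and 12.20, and at 12.09, 10.67 and 11.55 in the same order. Replicate 2 was again the lowest in every group, and each replicate had its highest value in the treated controls. Ccn1, a matricellular protein of the same family, stood at 13.14, 12.74 and 12.69, at 13.61, 13.33 and 13.03, and at 13.69, 12.94 and 13.24. Its groups overlapped in every pairing.

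Srf stood at 10.66, 10.67 and 10.48 in unstimulated control cells, at 11.42, 10.93 and 10.85 in TNF-α-treated control cells and at 11.26, 10.88 and 10.99 in knockdown cells. All 6 treated arrays lay above all 3 unstimulated ones, and the treated groups overlapped. Actg2, the γ-actin of enteric smooth muscle, stood at 11.67, 11.36 and 11.30, at 11.81, 11.29 and 11.49, and at 10.49, 10.27 and 9.68 in the same order. The 3 knockdown arrays lay below all 6 control arrays, and the control groups overlapped. Lmod1, a leiomodin that nucleates actin filaments in smooth muscle, stood at 8.33, 8.57 and 8.00, at 8.64, 8.55 and 8.37, and at 8.33, 8.21 and 7.96. Its knockdown values lay below all treated controls and overlapped the unstimulated ones.

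**Figure D1:**
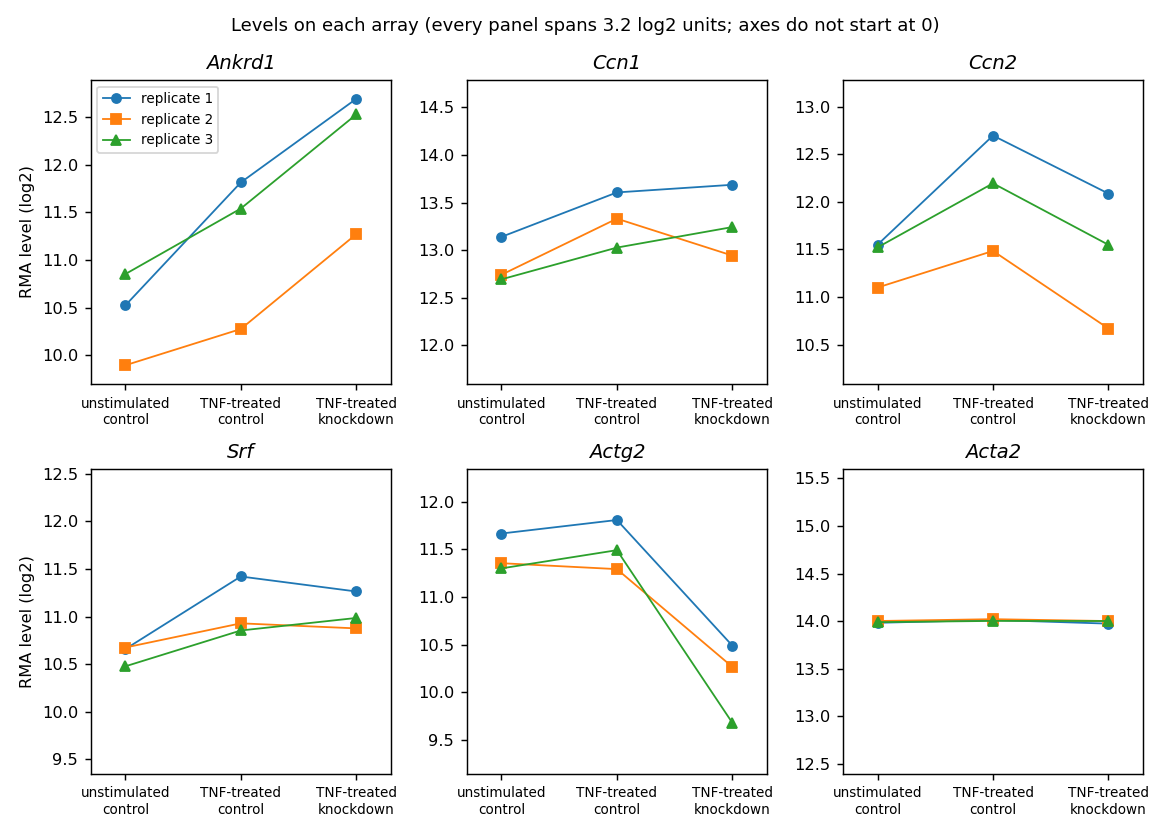
RMA log2 level (y axis, 3.2 log2 units in every panel, not starting at 0) of Ankrd1, Ccn1, Ccn2, Srf, Actg2 and Acta2 in the 3 groups (x axis), with 1 point per array and lines joining arrays of the same replicate number. Ankrd1 rises along each line to 12.69, 11.27 and 12.53, Ccn2 peaks in the treated controls, Actg2 drops in the 3 knockdown arrays, and Acta2 lies between 13.97 and 14.02 throughout.

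The other actins ranged over 0.05 (Acta2) to 0.25 (Acta1) log2 units across the 9 arrays. Acta2, the smooth muscle α-actin that marks contractile fibroblasts, stood at 13.98, 14.00 and 13.99 in unstimulated control cells, at 14.01, 14.02 and 14.00 in treated control cells and at 13.97, 14.00 and 14.00 in knockdown cells. Actb, the cytoplasmic β-actin, stood at 14.32, 14.33 and 14.35, at 14.33, 14.33 and 14.33, and at 14.33, 14.31 and 14.37. These 2 genes lay near the highest value on any array (14.61), and whether their probes still responded in proportion at that level was not tested. Acta1, the skeletal muscle α-actin, stood at 9.49, 9.51 and 9.50, at 9.55, 9.53 and 9.50, and at 9.50, 9.36 and 9.61. Actc1, the cardiac α-actin, stood at 8.96, 8.97 and 9.03, at 9.03, 9.04 and 8.97, and at 9.16, 9.02 and 9.03. The groups of Actb, Acta1 and Actc1 overlapped in every pairing. The actins are closely related in sequence, and signal shared between their probes was not tested.

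Myosin chains ranged over 0.13 (Myh11) to 0.39 (Myh9) log2 units. Myh9, the heavy chain of non-muscle myosin IIA, stood at 12.66, 12.57 and 12.67 in unstimulated control cells, at 12.68, 12.53 and 12.57 in treated control cells and at 12.77, 12.41 and 12.80 in knockdown cells. Myh10, that of non-muscle myosin IIB, stood at 11.68, 11.52 and 11.53, at 11.57, 11.45 and 11.48, and at 11.64, 11.41 and 11.57. Their groups overlapped in every pairing. Myh11, the smooth muscle heavy chain, stood at 7.58, 7.61 and 7.47, at 7.57, 7.57 and 7.57, and at 7.57, 7.57 and 7.57, with an identical value in 5 of the 6 TNF-α-treated arrays. Myl6, an essential light chain, stood at 13.27, 13.29 and 13.40, at 13.25, 13.26 and 13.41, and at 13.21, 13.33 and 13.29. Myl9, the regulatory light chain whose phosphorylation drives contraction, stood at 12.58, 12.80 and 12.82, at 12.69, 12.79 and 12.85, and at 12.73, 12.65 and 12.94. The groups of these 3 genes overlapped in every pairing too.

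The response of control cells to TNF-α called 0 of the 35 genes by limma, in either direction, without or with the replicate number as a block. Over all genes, 0.137% were called higher and 0.00% lower, or 0.366% and 0.0305% with the block. The methods' t-test with a difference over 0.35 also picked out 0 (0.543% of all genes higher and 0.0406% lower, or 0.00508% and 0.00% after Benjamini-Hochberg adjustment). At an unadjusted p under 0.05, 1 gene was higher (Srf, against 1.85% of all genes) and 0 lower (1.22%), or 5 (Ankrd1, Ccn1, Ccn2, Lmod1 and Srf, against 3.02%) and 0 (2.24%) with the block. Ankrd1 differed by 0.79 ± 0.48 (95% interval -0.31 to 1.89, adjusted p = 1, and 0.139 with the block) and was higher in 3 of 3 same-numbered pairs, by 1.29, 0.38 and 0.69. Ccn2 differed by 0.73 ± 0.38 (-0.14 to 1.60, adjusted p = 1, and 0.198 with the block), by 1.15, 0.38 and 0.67 in the pairs. Ccn1 differed by 0.46 ± 0.21 (-0.02 to 0.95, adjusted p = 1, and 0.242 with the block), by 0.47, 0.59 and 0.33 in the pairs. Srf differed by 0.46 ± 0.15 (0.11 to 0.82, adjusted p = 1, and 0.197 with the block), by 0.76, 0.25 and 0.38 in the pairs. For these 4 genes every same-numbered difference was above 0, and none passed the test, which does not show that they stayed level. Single arrays moved these values: without TNF-α-treated control array 1 the difference was 0.48 for Ankrd1, 0.45 for Ccn2 and 0.29 for Srf, and Ankrd1 stood at 1.25 without treated control array 2 and at 0.52 without unstimulated array 2.

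Lmod1 differed by 0.22 ± 0.15 (adjusted p = 1, and 0.806 with the block), or by 0.07 without unstimulated array 3 and 0.35 without unstimulated array 2, and the remaining 30 genes by -0.11 to 0.16. Over the 35 genes the median difference was 0.04 with 24 above 0 and 11 below, beside a median of -0.0020 with 48.6% above and 51.3% below for all genes. Groups did not overlap for Acta2 (0.02 ± 0.04) and Srf, both higher (3.19% of all genes), and for 0 genes in the lower direction (2.78%). All 3 same-numbered differences were above 0 for 11 of the 35 genes (12.1% of all genes) and below 0 for 4 (16.1%). The 11 were the YAP-type genes, Acta1, Acta2, Srf, the tropomyosin Tpm1, transgelin (Tagln), the PDZ-LIM scaffold genes Pdlim5 and Pdlim7, and synaptopodin-2 (Synpo2), and the 4 were Myh10, myosin light chain kinase (Mylk), filamin A (Flna) and Mrtfa. Thin filament regulators had a median of 0.04, from -0.11 for Mylk to 0.22 for Lmod1, and adhesion, cross-linking and scaffold genes a median of 0.08, from -0.09 for Flna to 0.16 for Pdlim5. Mrtfa differed by -0.07 ± 0.10 and Mrtfb by -0.05 ± 0.06.

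The response to TNF-α of the YAP-type genes was set beside that of the actin and myosin genes. The YAP-type genes had a median difference of 0.73, and their 9 same-numbered differences all lay between 0.33 and 1.29. The 10 actin and myosin genes had a median of 0.02, with 6 of 10 above 0, and their 30 same-numbered differences lay between -0.11 and 0.19. Averaged within a replicate, the YAP-type genes stood 0.97, 0.45 and 0.56 above the unstimulated arrays, and the actin and myosin genes 0.03, -0.01 and 0.01. The widest 95% interval of the 10 actin and myosin genes, that of Actg2, reached from -0.39 to 0.57. Without Actg2, the widest intervals reached -0.27 and 0.25. The 2 groups were compared by these values only, since genes of 1 array are not replicates. Acta2 and Actb lay near the highest value on any array, and Myh11 had an identical value in 5 of the 6 TNF-α-treated arrays. Whether these genes could show a change on this array was not tested.

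**Figure D2:**
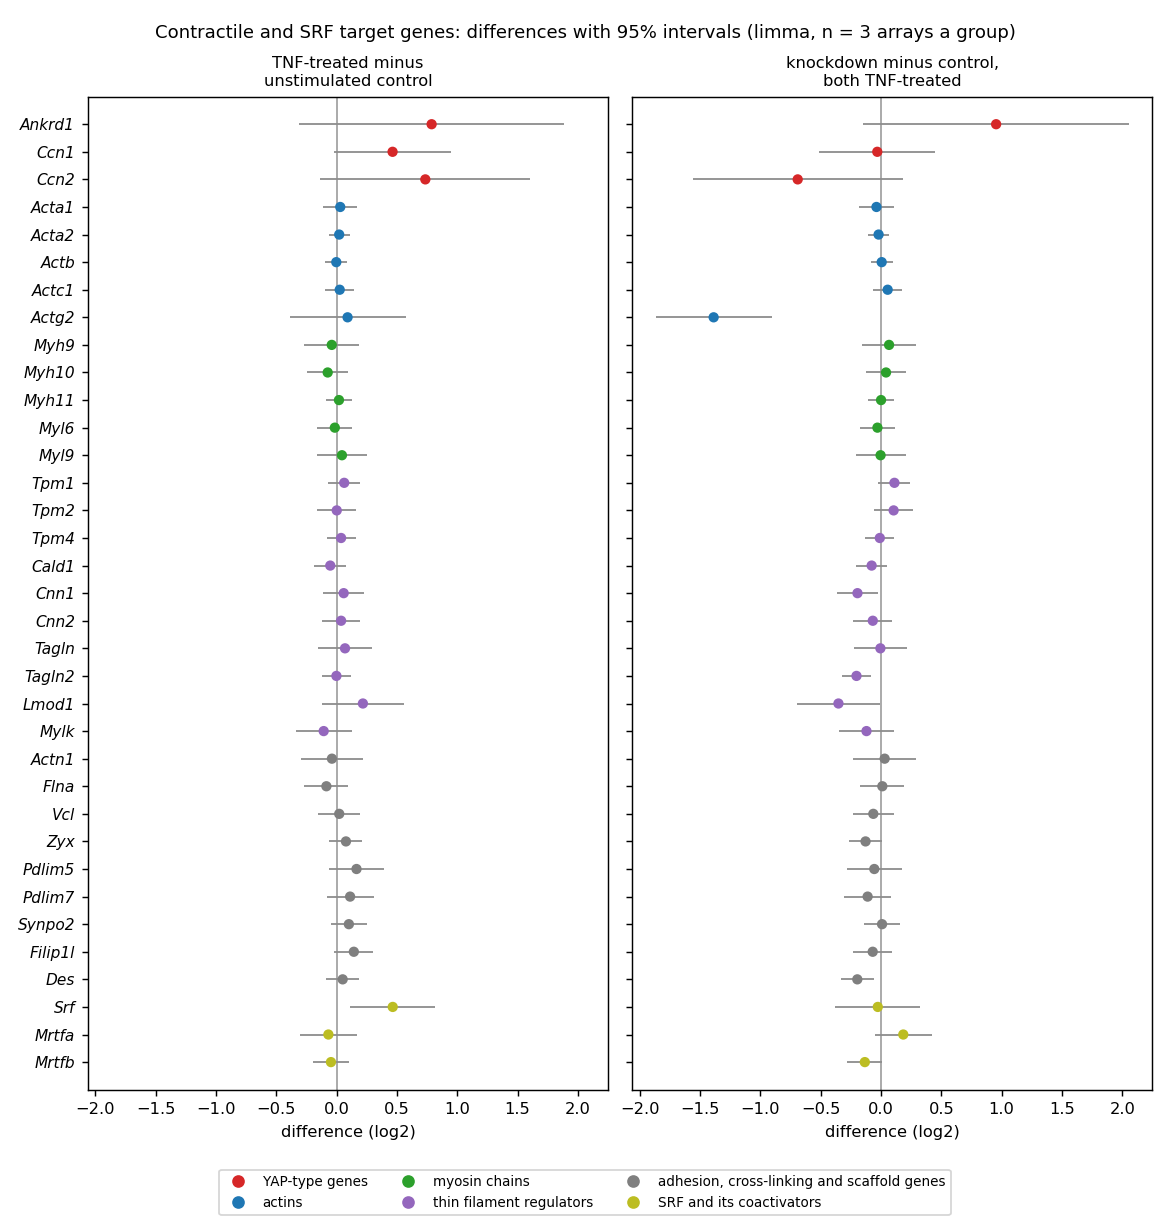
Log2 difference (x axis) with its 95% interval from limma (bars, n = 3 arrays a group) for the 35 genes (y axis), coloured by role, after TNF-α in control cells (left) and in knockdown against control cells, both treated (right). The YAP-type genes and Srf lie at 0.46 to 0.79 on the left, and Actg2 at -1.39 and Ankrd1 at 0.95 stand apart on the right.

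BAF knockdown called 0 of the 35 genes by limma in TNF-α-treated cells (0.0355% of all genes were called higher and 0.102% lower). This comparison shares the treated control arrays with the one before. With the replicate block, Ankrd1 was called higher (0.980% of all genes) and Actg2 lower (2.33%). The methods' rule for the knockdown, a difference over 0.3 with no test, held for Ankrd1 as higher (1.87% of all genes) and for Actg2, Ccn2 and Lmod1 as lower (3.27%). Actg2 differed by -1.39 ± 0.21 (2.61-fold lower, 95% interval -1.87 to -0.91, adjusted p = 0.0599, and 0.00207 with the block), by -1.32, -1.03 and -1.81 in the same-numbered pairs. Ankrd1 differed by 0.95 ± 0.48 (1.94-fold higher, -0.15 to 2.05, adjusted p = 0.683, and 0.0179 with the block), by 0.88, 1.00 and 0.99 in the pairs. Its groups overlapped as pools of 3, since replicate 2 was low in both, whereas all 3 pairs lay between 0.88 and 1.00. The blocked call of Actg2 was lost without all arrays numbered 1 (adjusted p = 0.176) and kept without those numbered 2 (0.00569) or 3 (0.021). Without the block, the difference of Ankrd1 was 0.49 when treated control array 2 was left out and 1.40 when knockdown array 2 was. The blocked call of Ankrd1 was lost without the arrays numbered 1 (0.127) or 3 (0.209) and kept without those numbered 2 (0.0349).

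The YAP-type genes did not share a direction in the knockdown. Ccn2 differed by -0.69 ± 0.38 (-1.56 to 0.18, adjusted p = 0.734, and 0.0626 with the block) and was lower in 3 of 3 same-numbered pairs, by -0.61, -0.82 and -0.65. Its difference was -0.40 without treated control array 1 and -0.31 without knockdown array 2. Ccn1 differed by -0.03 ± 0.21 (-0.51 to 0.45, adjusted p = 0.989), with pairs at 0.08, -0.39 and 0.22 that did not share a direction. Ankrd1 was thus above the treated controls in every pair and Ccn2 below them in every pair, while Ccn1 was neither. Their median was -0.03, that of Ccn1. Srf differed by -0.03 ± 0.15 (-0.38 to 0.33, adjusted p = 0.989).

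Apart from Actg2, the 9 actin and myosin genes ranged from -0.04 for Acta1 to 0.07 for Myh9, their 27 same-numbered differences lay between -0.17 and 0.23, and the widest 95% intervals reached -0.21 and 0.29. Acta2 did not overlap between the groups, at -0.02 ± 0.04. Averaged within a replicate, these 9 genes differed by 0.02, -0.05 and 0.05, and the YAP-type genes by 0.12, -0.07 and 0.19. With Actg2 included, as in the comparison after TNF-α, the 10 actin and myosin genes differed by -0.11, -0.15 and -0.13.

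Thin filament regulators mostly lay below 0 in the knockdown, with a median of -0.07 and 2 of 10 above 0. Lmod1 differed by -0.35 ± 0.15 (adjusted p = 0.571, and 0.0684 with the block), by -0.31, -0.34 and -0.41 in the pairs. The actin-bundling transgelin-2 (Tagln2) differed by -0.20 ± 0.05 (adjusted p = 0.236) and the calponin Cnn1, an inhibitor of actomyosin ATPase in smooth muscle, by -0.19 ± 0.08 (adjusted p = 0.5). Tropomyosins Tpm1 (0.11 ± 0.06) and Tpm2 (0.10 ± 0.07), which cover the actin filament, were the 2 above 0. The adhesion, cross-linking and scaffold genes had a median of -0.06, with 3 of 9 above 0, and the intermediate filament protein desmin (Des) had the largest size, -0.20 ± 0.06 (adjusted p = 0.346). The cross-linker α-actinin-1 (Actn1, 0.03 ± 0.11), Flna (0.01 ± 0.08), Vcl (-0.06 ± 0.08) and zyxin (Zyx, -0.13 ± 0.06), all of stress fibres or focal adhesions, had smaller sizes. Mrtfa differed by 0.18 ± 0.10 and Mrtfb by -0.13 ± 0.06 (adjusted p = 0.743 and 0.645).

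More of these genes lay below than above the treated controls. The median of the 35 was -0.03 with 12 above 0 and 23 below, beside 0.0088 with 54.5% above and 45.5% below for all genes. At an unadjusted p under 0.05, 5 were lower (Actg2, Cnn1, Tagln2, Lmod1 and Des, against 4.75% of all genes) and 0 higher (3.69%), or 7 lower (with Ccn2 and Mrtfb, 7.41%) and 1 higher (Ankrd1, 5.95%) with the block. The 3 knockdown arrays lay below the 3 treated controls for 8 genes (those 5, Acta2, the caldesmon gene Cald1 and Mrtfb, against 5.47%) and above them for 0 (4.63%). All 3 same-numbered differences were below 0 for 13 genes (12.8% of all genes) and above 0 for Ankrd1, Tpm1 and Actn1 (12.9%). The mean level of 8 smooth muscle markers ran from 8.89 to 8.98 in treated control and from 8.60 to 8.76 in knockdown arrays. That list holds Actg2, Cnn1, Lmod1, Des, Myh11 and Synpo2 of the set, so its mean largely restates their values. In the knockdown 4 of the 8 markers lay above 0 (54.5% of all genes). The markers outside the set, Smtn (0.04) and Myocd (0.05), were among those 4.

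**Figure D3:**
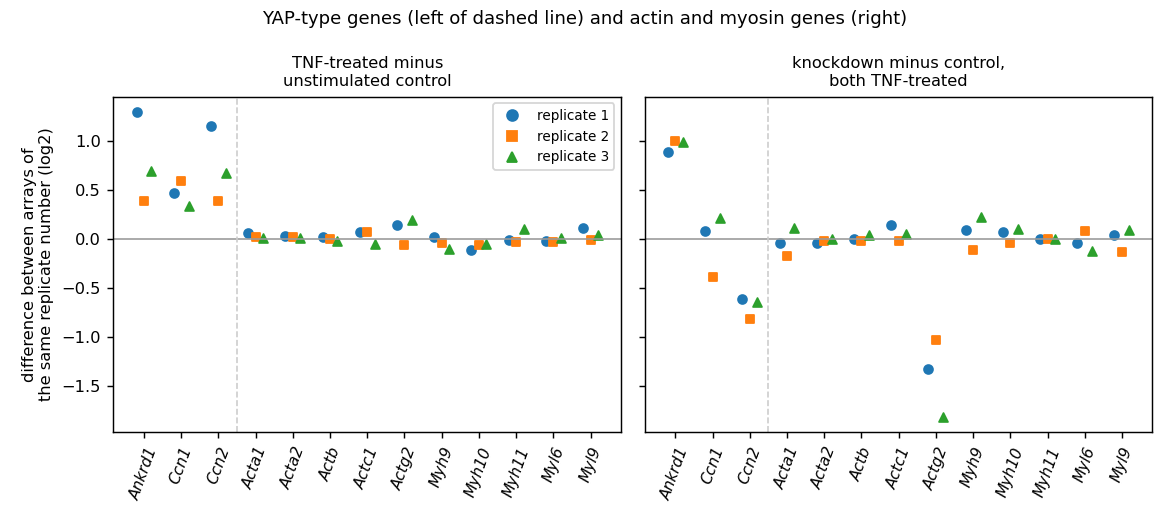
Log2 difference between arrays of the same replicate number (y axis, 3 points per gene, shaped by replicate) for the YAP-type genes, left of the dashed line, and the actin and myosin genes (x axis), after TNF-α (left) and in the knockdown (right). After TNF-α the 9 points of the YAP-type genes lie between 0.33 and 1.29 and the 30 others between -0.11 and 0.19, and in the knockdown Ankrd1 and Ccn2 lie on opposite sides of 0 with Actg2 lowest.

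TNF-α-treated knockdown cells were also set against unstimulated control cells, a comparison that joins both differences and shares arrays with each. Actg2 was called lower by limma (-1.30 ± 0.21, 2.46-fold, adjusted p = 0.0299, and 0.0019 with the block), against 0.518% of all genes called higher and 0.599% lower. That call was lost when any of 7 single arrays was left out, all but TNF-α-treated control array 2 and knockdown array 2 (adjusted p from 0.051 to 0.138), and when only the 6 arrays compared were fitted (0.113). The block also called Ankrd1 (1.74 ± 0.48, 3.34-fold, adjusted p = 0.168, and 0.00111 with the block) and Srf (0.44 ± 0.15, 1.35-fold, adjusted p = 0.29, and 0.0453 with the block) higher, against 1.98% of all genes higher and 3.36% lower. Ankrd1 stayed called with the block without all arrays of any 1 number (adjusted p from 0.00307 to 0.0433). Srf was lost without the arrays numbered 1 (0.308) or 3 (0.248), and Actg2 without those numbered 1 (0.133). Ccn1 differed by 0.43 ± 0.21 (adjusted p = 0.483, and 0.0593 with the block) and Ccn2 by 0.04 ± 0.38 (-0.83 to 0.91, adjusted p = 0.979). Without knockdown array 1 these values were 0.23 and -0.28, and without knockdown array 2 Ccn2 stood at 0.43.

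At an unadjusted p under 0.05, 3 genes were higher (5.21%) and 4 lower (6.76%), or 4 (7.64%) and 5 (9.68%) with the block. Tpm1 (0.17 ± 0.06) and Synpo2 (0.11 ± 0.07) joined Ankrd1 and Srf among 4 genes whose knockdown arrays all lay above the unstimulated ones (7.01% of all genes). Actg2, Cald1, Tagln2, Mylk, Des and Mrtfb made 6 that lay below (7.00%), at -0.23 (Mylk) to -0.13 (Cald1) apart from Actg2. The median of the 35 genes was 0.0010 with 19 above 0 and 16 below, beside 0.01 with 55.3% above and 44.6% below for all genes. All 3 same-numbered differences were above 0 for 5 genes (16.9% of all genes) and below 0 for 7 (15.4%). Apart from Actg2, the actin and myosin genes lay between -0.04 and 0.08.

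Other YAP and TEAD targets were followed through 19 signature genes outside the set. After TNF-α, 0 were called by limma, and 3 were higher at an unadjusted p under 0.05 (1.85% of all genes). The block called Gadd45a, a growth arrest gene, higher (0.60 ± 0.10, adjusted p = 0.112, and 0.017 with the block, against 0.366% of all genes). It also called Nuak2, a kinase that raises myosin contractility (0.74 ± 0.15, adjusted p = 0.287, and 0.00207 with the block). The 19 genes had a median of 0.05 with 11 of 19 above 0 (48.6% of all genes). In the knockdown 0 were called by limma, the median was 0.13 and 13 of 19 lay above 0. For all genes the median was 0.0088, with 54.5% above 0. At an unadjusted p under 0.05, 5 were higher (3.69% of all genes) and 1 was lower (4.75%). The block called the membrane repair protein Myof (0.47 ± 0.15, adjusted p = 0.377, and 0.0118 with the block) and Nuak2 (0.30 ± 0.15, adjusted p = 0.692, and 0.0329 with the block) higher (0.980% of all genes). It called 0 lower (2.33%). Against unstimulated cells Gadd45a (0.62 ± 0.10, adjusted p = 0.0265) and Nuak2 (1.04 ± 0.15, adjusted p = 0.0208) were higher (0.518% of all genes). The block added Myof, the angiomotin Amotl2 and tissue factor (F3) as higher (1.98%), and Arhgef17 as lower (3.36%). Of 12 YAP pathway genes, 0 were called by limma in the 3 comparisons. At an unadjusted p under 0.05 there were 0, 2 (Vgll3 higher, Tead2 lower) and 1 (Tead2 lower). Of all genes, 1.85%, 3.69% and 5.21% were higher at that threshold and 1.22%, 4.75% and 6.76% lower. The largest differences of the 12 after TNF-α were those of Amot (-0.16), Tead2 (-0.09) and Tead1 (-0.08). Yap1, named after its values were seen, differed by -0.07 ± 0.05 after TNF-α and by -0.02 ± 0.05 in the knockdown. The block called the TEAD factor gene Tead3 lower in the knockdown (-0.28 ± 0.14, adjusted p = 0.643, and 0.043 with the block, against 2.33% of all genes). It called Tead2 and Tead3 lower against unstimulated cells (-0.29 and -0.27, against 3.36%).

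**Figure D4:**
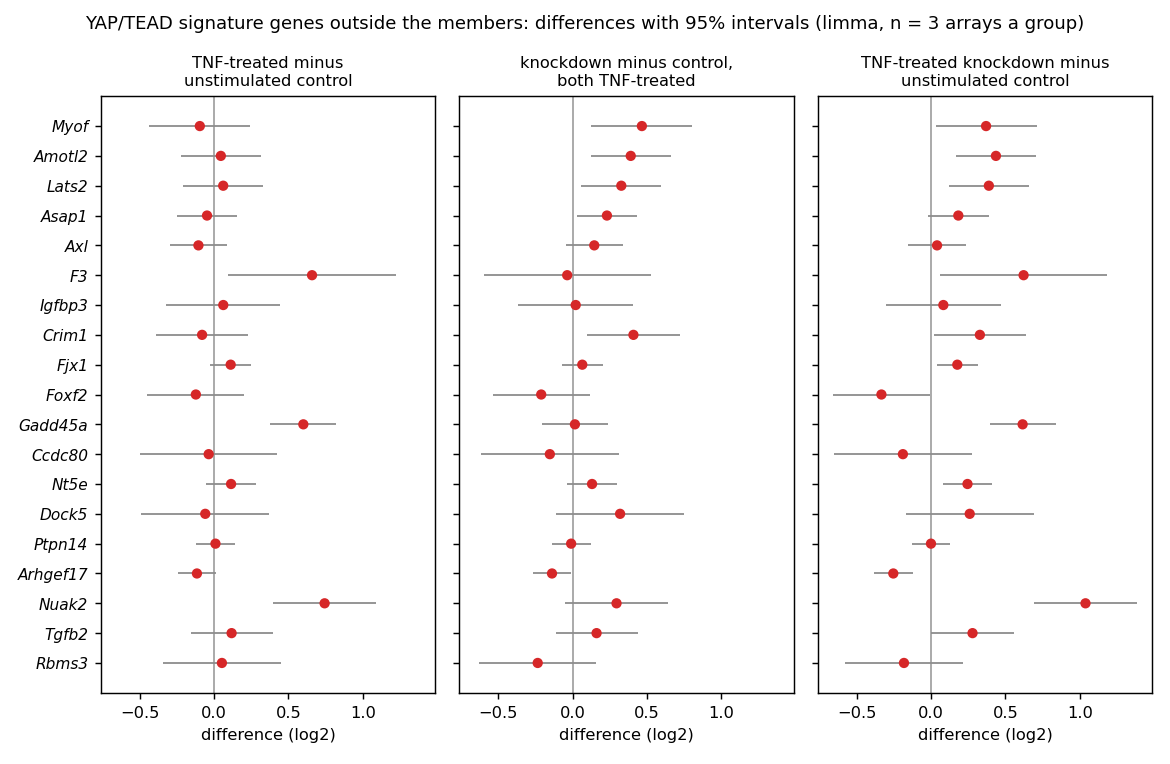
Log2 difference (x axis) with its 95% interval from limma (bars, n = 3 arrays a group) for 19 YAP and TEAD signature genes outside the set (y axis) in the 3 comparisons. F3, Gadd45a and Nuak2 lie at 0.60 to 0.74 after TNF-α, and Myof lies at 0.47 in the knockdown.

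The SRF branch served by ternary complex factors was followed through 9 immediate early genes. Whether their differences came through SRF or another route was not tested. After TNF-α, Egr2 rose (2.75 ± 0.39, limma adjusted p = 0.0477, against 0.137% of all genes). The median was 0.88 and 9 of 9 lay above 0 (48.6% of all genes). With the block Egr1 (2.15, adjusted p = 0.00839), Nr4a1 (2.34, adjusted p = 0.0415) and Ier2 (0.88, adjusted p = 0.0383) rose as well (0.366% of all genes). In the knockdown 0 of the 9 were called by limma, with a median of -0.21 and 2 of 9 above 0 (54.5% of all genes). At an unadjusted p under 0.05 there were also 0 (3.69% of all genes higher and 4.75% lower). The largest differences were those of Egr1 (-0.39), Ier2 (-0.37) and Fos (-0.31). Against unstimulated cells Egr1 (1.77) and Egr2 (2.84) were called higher (0.518% of all genes), and the block added Nr4a1 (2.12, against 1.98%). Of the 4 SRF cofactor genes 0 were called by limma. At an unadjusted p under 0.05 there were 0 after TNF-α and 1 lower in each other comparison (4.75% and 6.76% of all genes). That gene was Elk3, a ternary complex factor. With the block Elk3 was called lower in the knockdown (-0.38 ± 0.09, adjusted p = 0.169, and 0.0211 with the block) and against unstimulated cells (-0.32, adjusted p = 0.171, and 0.0293 with the block). Of all genes, the block called 2.33% and 3.36% lower there.

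Of 24 further cytoskeletal genes tied to MRTF and SRF, 0 were called after TNF-α by limma, without or with the block, and the median was 0.03. At an unadjusted p under 0.05, 1 was higher (Fhl2, against 1.85% of all genes). The largest differences there were those of Fhl2 (0.35 ± 0.12), Itga5 (0.27) and Smtn (0.14). In the knockdown Csrp2, a LIM protein of smooth muscle, fell (-0.58 ± 0.07, limma adjusted p = 0.0371, against 0.102% of all genes), with a median of -0.02 for the list. The block added the integrin subunit Itga5 as lower (-0.64 ± 0.19, adjusted p = 0.3, and 0.0497 with the block, against 2.33% of all genes). It also added tensin-1 (Tns1, -0.69 ± 0.13, adjusted p = 0.0913, and 0.0108 with the block), which ties integrins to actin. Csrp2 was also lower against unstimulated cells (-0.52, adjusted p = 0.0204, against 0.599% of all genes). There the block added Tns1 as lower (-0.62, against 3.36%) and Pdlim1 as higher (0.34, against 1.98%).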

How the data were processed

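Total RNA from 9 cultures of 3T3 fibroblasts was hybridised to Affymetrix mouse Gene 1.0 ST arrays. Signals on a log2 scale, made by the authors with RMA, were the values used (background correction, quantile normalisation, median-polish summary per transcript cluster). The study names the affy package of Bioconductor for this step. The sources used here give no genome build for the array annotation. Quantile normalisation gives every array nearly the same distribution (medians 7.77 to 7.83), so differences are relative to the bulk of genes. Arrays give no read depth, and their number limits the precision.

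Of 27024 transcript clusters, 21319 had 1 gene symbol, 1430 several and 4275 none, and 21237 matched a RefSeq gene identifier. The cluster with the highest mean was kept per symbol. Groups came from the sample titles. Differences were fitted with limma 3.58.1 in R 4.3.3 (lmFit, eBayes, 1 mean per group, all 9 arrays, two-sided), with Benjamini-Hochberg adjustment over 19698 genes and calls at an adjusted p under 0.05, and the script was tested on simulated data. Deviations from the group mean correlated between arrays of the same number (0.21 to 0.724, against -0.566 to 0.0111 for different numbers), so a second fit had the replicate number as a block. For TNF-α the methods use Student's t-test with a difference over 0.35, and for the knockdown a difference over 0.3 with no test, a rule that was added after seeing the data. Student's t-test with a difference over 0.3 was run here on both knockdown comparisons. Alternatives were array weights, median centring, a filter on dim genes, the mean over clusters, a variance trend, fits of 6 arrays and leaving out arrays.

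Array values are given for the YAP-type genes, actins, myosin chains, called genes and the 4 largest differences per comparison. Genes of other lists are named where called, or else up to 3 by size. P-values measure only the spread between these arrays. Members and lists were chosen with earlier results of these data known. Protein sequences were not used here. The results of 1 further gene list are not reported here.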

Additional observations from a re-analysis of the deposited data

How the results depend on the processing

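Of the 35 genes, 0 were called after TNF-α under any alternative run. In the knockdown, 0 were called in the main fit, which has no block, and 2 with the replicate block (Ankrd1 and Actg2). With the block and all arrays of 1 number left out, 0 to 3 were called (the third gene, without the arrays numbered 2, was Lmod1). Array weights and Student's t-test, unadjusted, called 1 each (Actg2), the methods' size rule, added after seeing the data and with no test, held for 4, and leaving out single arrays, knockdown array 2 among them, called 0. Against unstimulated cells, 1 was called in the main fit, 3 with the block and 1 to 4 with the block and 1 number left out (4 with Ccn1), against 0 to 1 when single arrays were left out. Fitting only the 6 arrays gave 0, and Student's t-test gave 3 unadjusted and 0 after Benjamini-Hochberg adjustment. The replicate block changed no other call among the 35 genes. Under the alternatives the sign of a difference turned for at most 7 of 35 genes, each with a main size of 0.09 or less. The cause of these changes was not tested. The number of arrays, 3 a group, limits the precision of every value.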
